A study of Mus musculus with 28 samples.

Results

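The genes described are 6 homeobox genes of the facial mesenchyme: Alx1, Alx4, Prrx1, Prrx2, Pitx1 and Barx1. They were picked by symbol, with earlier results of these data known but by a rule that uses no level, from a count table of 54429 genes, and all 6 were found. The table comes from RNA sequencing of 28 libraries of O9-1 cells, a single established mouse line from the cranial neural crest, the embryonic population that builds most of the face. The study asked how well these cells differentiate at low oxygen, and its libraries of polyA RNA cover 4 kinds of culture, each at 21% O2 (4 libraries) and at 0.5% O2 (3 libraries). Proliferating cells were grown in conditioned medium with 15% serum, 25 ng/ml bFGF and 5 ng/ml LIF. Osteoblast cultures spent 10 days in 10% serum with beta-glycerophosphate, 0.1 µM dexamethasone and 100 ng/ml BMP-2. Chondrocyte cultures had 3 days of that osteoblast medium, then 7 days as micromasses on matrigel in 5% serum with insulin, transferrin and selenium, 0.1 µM dexamethasone, 10 ng/ml TGF-beta3 and 50 ng/ml BMP-2. Smooth muscle cultures spent 3 days in DMEM with 10% serum, and the labels name no growth factor there. The labels name no genetic change in any group, and medium, time and oxygen are the stated differences. Nothing in the labels says that libraries of a group came from separate cultures, so the p-values measure the spread between these libraries, which may be technical.

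A homeodomain is a compact DNA-binding fold, and the factors that carry one commonly recognise short sites with a TAAT core. Prrx1 and Prrx2 are paralogues of the paired class that are active in limb and facial mesenchyme, and mice lacking both have more severe jaw defects than mice lacking Prrx1 alone. Alx1 and Alx4 are paired-class factors of the frontonasal region, whose loss disturbs the midface and skull vault. Pitx1 belongs to the bicoid-related branch and is known for its roles in the mandible and the hindlimb, and Barx1 is a BarH-like factor of the molar-forming jaw mesenchyme and the stomach.

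On GRCm38 the genes are all annotated as protein coding: Prrx1 (ENSMUSG00000026586) at chr1:163245119-163313710 on the minus strand, Prrx2 (ENSMUSG00000039476) at chr2:30834972-30881251 on the plus strand, and Alx4 (ENSMUSG00000040310) at chr2:93642384-93681339 on the plus strand. Alx1 (ENSMUSG00000036602) lies at chr10:102998707-103030215 on the minus strand, Pitx1 (ENSMUSG00000021506) at chr13:55825051-55836192 on the minus strand and Barx1 (ENSMUSG00000021381) at chr13:48662998-48666507 on the plus strand. The paralogues of each pair share only short exact runs in their longest coding sequences. The rest of the exons was not compared, and how well reads tell the paralogues apart was not tested. The coding sequences of Prrx1 and Prrx2 were 68.9% identical over 708 aligned bases, and the longest run that they share exactly is 19 bases, tcaacatggccaacagcat, from base 653 of the Prrx1 coding sequence. Those of Alx1 and Alx4 were 66.9% identical over 961 aligned bases, and their longest shared run is also 19 bases.

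The promoter windows of the Prrx paralogues are shown because the levels of this pair are set side by side across oxygen levels in what follows. Each window runs from 250 bases before to 50 bases after the RefSeq start in GRCm38.p6, 5′ to 3′ on the gene's strand, at chr1:163313601-163313900 (minus strand) for Prrx1 and chr2:30845117-30845416 (plus strand) for Prrx2, and the capitals mark the motif matches.
Prrx1: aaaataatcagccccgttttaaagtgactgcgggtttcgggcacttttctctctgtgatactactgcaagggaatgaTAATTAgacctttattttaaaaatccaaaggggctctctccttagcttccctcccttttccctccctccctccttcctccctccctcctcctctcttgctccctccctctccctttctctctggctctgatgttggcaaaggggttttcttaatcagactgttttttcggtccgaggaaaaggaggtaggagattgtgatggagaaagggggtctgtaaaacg
Prrx2: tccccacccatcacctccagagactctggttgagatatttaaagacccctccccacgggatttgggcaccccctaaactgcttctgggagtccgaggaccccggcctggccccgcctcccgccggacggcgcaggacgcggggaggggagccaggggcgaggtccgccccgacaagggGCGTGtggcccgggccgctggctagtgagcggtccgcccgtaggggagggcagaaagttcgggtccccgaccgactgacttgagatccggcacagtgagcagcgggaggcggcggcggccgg
The motifs ACGTG and GCGTG (cores of the hypoxia response element), TAATTA (a homeodomain palindrome), CACCTG and CAGATG (E-boxes) were searched on both strands. The Prrx1 window holds TAATTA once, 173 bases before the start, as do 5.29% of 32851 mouse promoter windows of this length. The Prrx2 window holds GCGTG once, 72 bases before the start, as do 32.4% of those windows. The window of Barx1 (chr13:48662786-48663085, plus strand) holds none of the 5 motifs. G and C make up 47.7% of the bases for Prrx1, 70.3% for Prrx2 and 84.7% for Barx1. A match is a description of letters, not of a bound site.

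Library totals ran from 19869271 to 64693346 counts. Levels are given in CPM, the count of a gene relative to the total of its library, scaled by TMM, a factor that offsets differences in library composition. Some libraries stood apart. The 3 smooth muscle libraries at 0.5% O2 had 11.6 to 13.3% of their counts in mitochondrial ribosomal RNA and TMM factors of 0.505 to 0.533. Their 4 smooth muscle markers (Acta2, Tagln, Cnn1, Myh11) summed to 28.5 to 42.3 CPM, against 3323 to 3757 CPM at 21% O2 and 36.3 to 43.3 CPM in proliferating cells at 0.5% O2, so the markers go against that label, which is kept here as given. Cd68, a macrophage marker, was at 35.0 ± 2.01 CPM (SD, n = 3) there and at 0.644 ± 0.163 CPM (SD, n = 4) in smooth muscle cultures at 21% O2, while Ptprc and Hbb-bs stayed below 0.3 CPM. In the osteoblast group at 21% O2, replicates 1 to 3 had 0.670 to 1.36 CPM of the osteoblast factor Sp7, 1.39 to 2.52 CPM of the phosphatase gene Alpl and 0.384 to 0.475 CPM of the bone matrix gene Ibsp, and replicate 4 had 45.4, 40.0 and 3.20 CPM. At 0.5% O2 the osteoblast means were 96.7 ± 0.374 CPM for Sp7, 74.6 ± 7.66 CPM for Alpl and 69.6 ± 6.21 CPM for Ibsp (SD, n = 3). Proliferating cells at 21% O2 had 0.149 ± 0.0298 CPM of Sp7 and 0.0331 ± 0.0663 CPM of Alpl (SD, n = 4) and 0 counts of Ibsp, so all 4 osteoblast libraries lay above them in these 3 genes. The collagen gene Col1a1 was at 5656 to 9277 CPM in osteoblast cultures at 21% O2, above the 1361 to 1547 CPM of proliferating cells. The other 2 bone markers, Runx2 and Bglap, were at 63.5 ± 6.04 and 0.121 ± 0.219 CPM in osteoblast cultures and at 63.9 ± 3.93 and 0.0270 ± 0.0540 CPM in proliferating cells at 21% O2 (SD, n = 4). The smooth muscle gene Acta2 was at 3227 ± 626 CPM in osteoblast, 3254 ± 213 CPM in smooth muscle and 1896 ± 188 CPM in chondrocyte cultures at 21% O2 (SD, n = 4). The 5 cartilage markers summed to 1445 CPM in osteoblast replicate 4 at 21% O2 and to 179 to 196 CPM in the other 3. The chondrocyte cultures held more bone marker RNA than the osteoblast cultures. The 6 bone markers summed to 36031 to 44785 CPM in chondrocyte and 5719 to 9423 CPM in osteoblast cultures at 21% O2. At 0.5% O2 they summed to 43317 to 50397 and 8769 to 11006 CPM. In chondrocyte cultures at 21% O2, Sp7 was at 170 ± 44.8 CPM and Ibsp at 1173 ± 553 CPM (SD, n = 4). The osteoblast means there were 12.1 and 1.13 CPM. Runx2 and Bglap went the other way at 0.5% O2. The osteoblast label is kept here as given. In bulk RNA, fewer cells of a type and less RNA per cell cannot be told apart.

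The 6 genes spanned the whole range from absent to abundant. Prrx1 was the highest of them in every group by CPM, from 385 ± 11.7 to 2509 ± 399 CPM, and per kilobase of exon in every group except the chondrocyte cultures at 0.5% O2. Prrx2 ran from 46.1 ± 3.38 to 194 ± 23.2 CPM and Barx1 from 6.94 ± 0.960 to 11.9 ± 1.55 CPM. Alx4 ran from 0 to 14.8 ± 5.28 CPM and Pitx1 from 0 to 0.852 ± 0.284 CPM. Alx1 had 1 count in all 28 libraries together, in a chondrocyte library at 0.5% O2, and could not be tested. A count of 0 over the 4 libraries of a group at 21% O2 still allows 0.0177 to 0.0266 CPM at a floor of 3 counts for the group, and the bound covers counting error only.

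**Figure D1:**
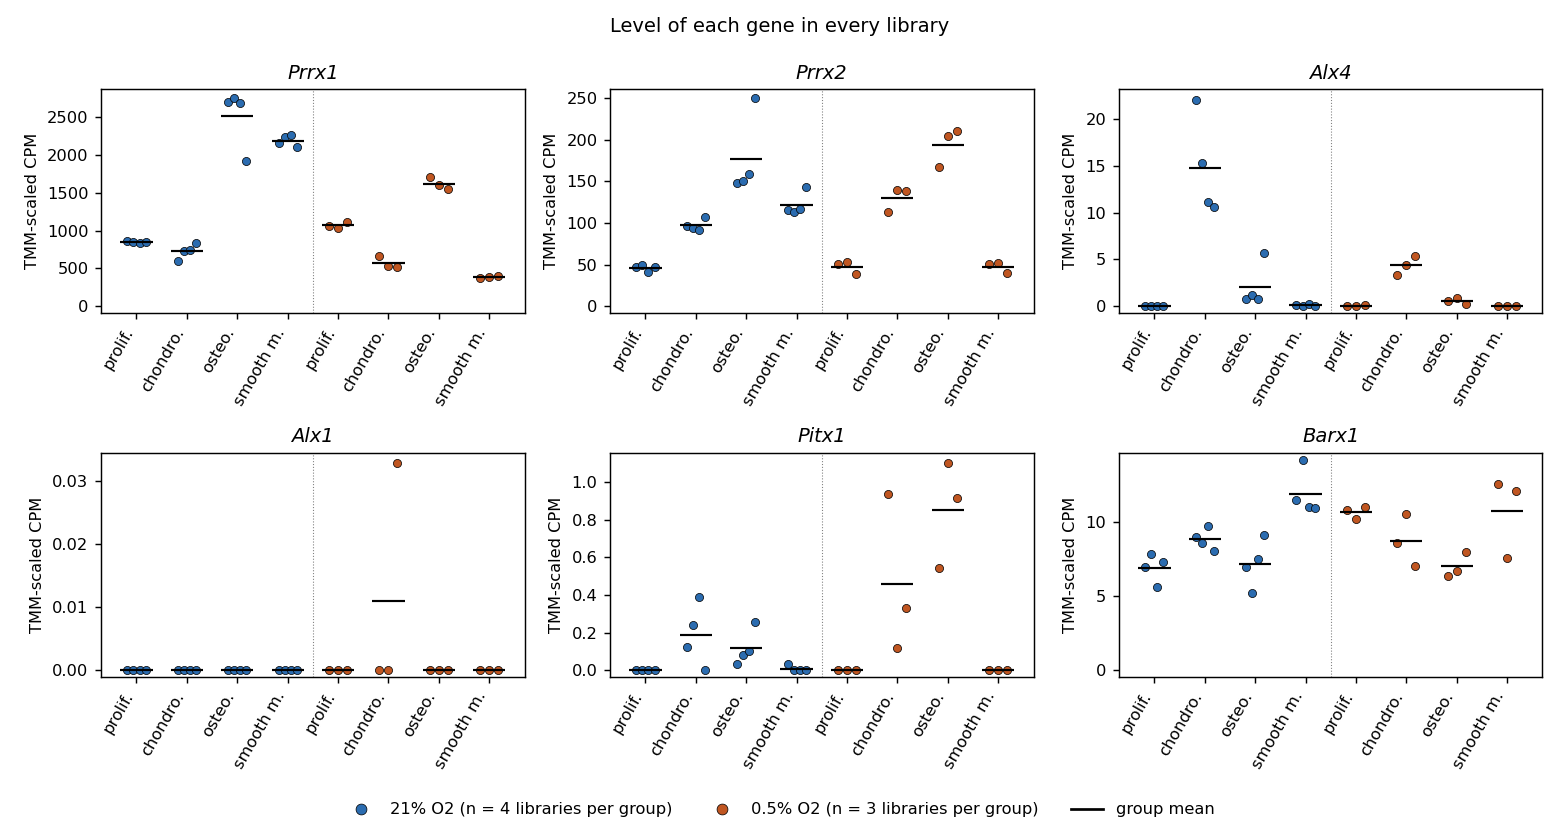
Level of each gene in every library, in TMM-scaled CPM on a linear axis of its own, with blue points for 21% O2 (4 libraries per group), orange points for 0.5% O2 (3 libraries per group) and black lines for group means. Prrx1 is highest in osteoblast and smooth muscle cultures at 21% O2 and lowest in smooth muscle cultures at 0.5% O2, and Alx4 is highest in chondrocyte cultures at 21% O2.

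Of the 6 genes, 3 to 5 had enough counts to be tested in each comparison. Calls are edgeR adjusted p-values under 0.05 over all genes tested, which most genes passed in most comparisons, so a call by itself sets no gene apart. In chondrocyte against proliferating cultures at 21% O2, 3 of 4 tested genes were called, all higher, where 74.9% of all genes tested were called (37.7% higher and 37.2% lower). In osteoblast cultures 3 of 4 were called, all higher, beside 78.7% of all genes (40.9% higher and 37.8% lower), and in smooth muscle cultures 3 of 3, all higher, beside 79.7% (40.8% higher and 38.9% lower). At 0.5% O2, 2 of 4 were higher and 1 lower (Prrx1) in chondrocyte cultures, beside 34.9% and 34.6% of all genes (69.5% together). In osteoblast cultures 3 of 4 were higher and 1 lower (Barx1), beside 36.2% and 35.1% (71.3% together), and in smooth muscle cultures 1 of 3 was called, Prrx1, which was lower, beside 33.8% higher and 36.2% lower (70.0% together). Some of these calls had a fixed direction. Alx4 in both chondrocyte comparisons and in osteoblast cultures at 21% O2, and Pitx1 in osteoblast cultures at 0.5% O2, had 0 to 3 counts over the proliferating libraries and entered the test only through the culture in which they were high, so they could only be called higher. Without them the counts of higher genes were 2 of 3 and 2 of 3 in chondrocyte and osteoblast cultures at 21% O2, and 1 of 3 and 2 of 3 at 0.5% O2, and nothing about the 6 genes as a set is read from these counts. Between oxygen levels, 2 of 3 tested genes were higher at 0.5% O2 in proliferating cells, beside 33.1% of all genes higher and 32.3% lower (65.4% together). In chondrocyte cultures 1 of 4 was higher and 2 were lower, beside 10.4% and 11.8% (22.2% together). In osteoblast cultures 1 of 5 was higher (Pitx1, which entered the test only through the libraries at 0.5% O2) and 1 lower, beside 27.0% and 27.3% (54.3% together), and in smooth muscle cultures 2 of 3 were lower, beside 35.4% higher and 40.2% lower (75.6% together). The 7 oxygen response markers (Vegfa, Slc2a1, Car9, Pdk1, Egln3, Bnip3 and Ankrd37) summed to 159 to 1031 CPM at 21% O2 and to 1846 to 3349 CPM at 0.5% O2.

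Prrx1 rose with osteoblast and smooth muscle conditions at 21% O2, and at 0.5% O2 the osteoblast rise was smaller and the smooth muscle level fell. In the 4 proliferating libraries at 21% O2 its level was 861, 850, 837 and 850 CPM. In osteoblast cultures it was 2702, 2745, 2677 and 1913 CPM, and in smooth muscle cultures 2153, 2232, 2262 and 2105 CPM. Every library of both cultures lay above every proliferating library, and osteoblast replicate 4 was the lowest of its group. The log2 fold change was 1.62 ± 0.11 (SE, edgeR adjusted p = 5.63e-07) for osteoblast and 1.42 ± 0.05 (edgeR adjusted p = 8.90e-13) for smooth muscle cultures. In chondrocyte cultures Prrx1 was at 601, 731, 738 and 834 CPM, all below the proliferating libraries, and its log2 fold change was -0.15 ± 0.08 (edgeR adjusted p = 0.118). That value is called lower when scaled by library size alone (-0.50), with no low-count filter (-0.18), with all 28 libraries in 1 fit (-0.23) or without chondrocyte replicate 4 (-0.21).

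At 0.5% O2 the proliferating libraries had 1056, 1039 and 1111 CPM of Prrx1, all above those at 21% O2, a log2 change of 0.39 ± 0.04 (edgeR adjusted p = 2.92e-06). The 3 differentiated cultures went the other way with oxygen. Osteoblast cultures had 1705, 1598 and 1547 CPM, below all 4 libraries at 21% O2, a log2 change of -0.63 ± 0.13 (edgeR adjusted p = 0.00345). The markers of these cultures differed too: the 6 bone markers summed to 5719 to 9423 CPM at 21% and 8769 to 11006 CPM at 0.5% O2, and the 4 smooth muscle markers to 3064 to 4682 and 1715 to 2004 CPM, and their part in the osteoblast differences was not tested. Smooth muscle cultures had 373, 386 and 396 CPM, a log2 change of -2.45 ± 0.07 against 21% O2 (edgeR adjusted p = 2.86e-13) and of -1.35 ± 0.07 against proliferating cells at 0.5% O2 (edgeR adjusted p = 7.94e-09). This is the group in which the mitochondrial RNA and marker values above stood apart, and their part in the fall was not tested. Against proliferating cells at 0.5% O2, Prrx1 rose by 0.59 ± 0.06 on the log2 scale in osteoblast cultures (edgeR adjusted p = 7.63e-07). Chondrocyte cultures had 662, 538 and 514 CPM of Prrx1 at 0.5% O2, all below the proliferating libraries (log2 -0.91 ± 0.08, edgeR adjusted p = 7.84e-07), in a range that overlaps that at 21% O2. The log2 change with oxygen was -0.35 ± 0.11 (edgeR adjusted p = 0.0484), and the call was lost when any of 5 of the 7 libraries was left out (Prrx1 adjusted p up to 0.191), or with RLE scaling (0.0544).

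The change of Prrx1 from proliferating cells was tested against oxygen directly, as an interaction. It was lower at 0.5% than at 21% O2 in chondrocyte cultures (log2 difference -0.73 ± 0.13, edgeR adjusted p = 2.11e-04), in osteoblast cultures (-0.98 ± 0.14, edgeR adjusted p = 2.01e-05) and in smooth muscle cultures (-2.79 ± 0.08, edgeR adjusted p = 4.81e-18). Over all genes tested, 43.5% were called in the chondrocyte interaction (21.6% higher and 21.9% lower), 54.2% in the osteoblast one (28.9% and 25.3%) and 70.4% in the smooth muscle one (34.9% and 35.5%). The 3 interactions and the comparisons within an oxygen level share the same proliferating libraries. In order of mean level, the Prrx1 ranges of neighbouring groups overlapped only between osteoblast and smooth muscle cultures at 21% O2 and between the chondrocyte cultures at the 2 oxygen levels.

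Prrx2, the less abundant paralogue, rose in all 3 conditions at 21% O2, and at 0.5% O2 it kept a rise in chondrocyte and osteoblast cultures. Proliferating libraries had 47.2, 49.1, 41.3 and 46.8 CPM at 21% O2 and 50.8, 52.9 and 39.2 CPM at 0.5% O2. These ranges overlap, and the log2 difference was 0.10 ± 0.10 (edgeR adjusted p = 0.373), and 0.23 ± 0.07 without replicate 3 at 0.5% O2 (edgeR adjusted p = 0.01999). Chondrocyte cultures had 96.2, 93.4, 91.9 and 108 CPM at 21% O2 and 113, 140 and 138 CPM at 0.5% O2. All 3 libraries at 0.5% O2 were the higher ones, a log2 change with oxygen of 0.41 ± 0.09 (edgeR adjusted p = 0.00616). Against proliferating cells the log2 fold change was 1.15 ± 0.07 at 21% O2 (edgeR adjusted p = 2.16e-08) and 1.44 ± 0.13 at 0.5% O2 (edgeR adjusted p = 1.23e-05). The difference between these changes missed the threshold (0.32 ± 0.14, edgeR adjusted p = 0.0746), and it passed when chondrocyte replicate 4 at 21% O2, proliferating replicate 2 or chondrocyte replicate 1 at 0.5% O2 was left out (0.37, 0.41 and 0.42).

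In osteoblast cultures Prrx2 was at 148, 150, 159 and 250 CPM at 21% O2 and at 167, 204 and 211 CPM at 0.5% O2. Replicate 4 at 21% O2 was above every other library, and the other 3 were below all libraries at 0.5% O2. The log2 change with oxygen was 0.13 ± 0.19 (edgeR adjusted p = 0.587), and without replicate 4 it was 0.35 ± 0.08 (edgeR adjusted p = 0.00217). Against proliferating cells Prrx2 rose by 1.99 ± 0.17 on the log2 scale at 21% O2 (edgeR adjusted p = 3.68e-06) and by 2.02 ± 0.12 at 0.5% O2 (edgeR adjusted p = 1.67e-09). In smooth muscle cultures Prrx2 was at 116, 113, 117 and 143 CPM at 21% O2, all above proliferating cells (log2 1.46 ± 0.08, edgeR adjusted p = 7.99e-11). At 0.5% O2 it was at 50.8, 51.9 and 40.5 CPM, within the range of proliferating cells, a log2 difference of 0.13 ± 0.14 (edgeR adjusted p = 0.433) that turned to -1.15 when scaled by library size alone. The fall with oxygen was -1.29 ± 0.11 (edgeR adjusted p = 6.28e-08) and the interaction -1.36 ± 0.15 (-1.355, edgeR adjusted p = 7.55e-08), again in the libraries that stood apart.

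**Figure D2:**
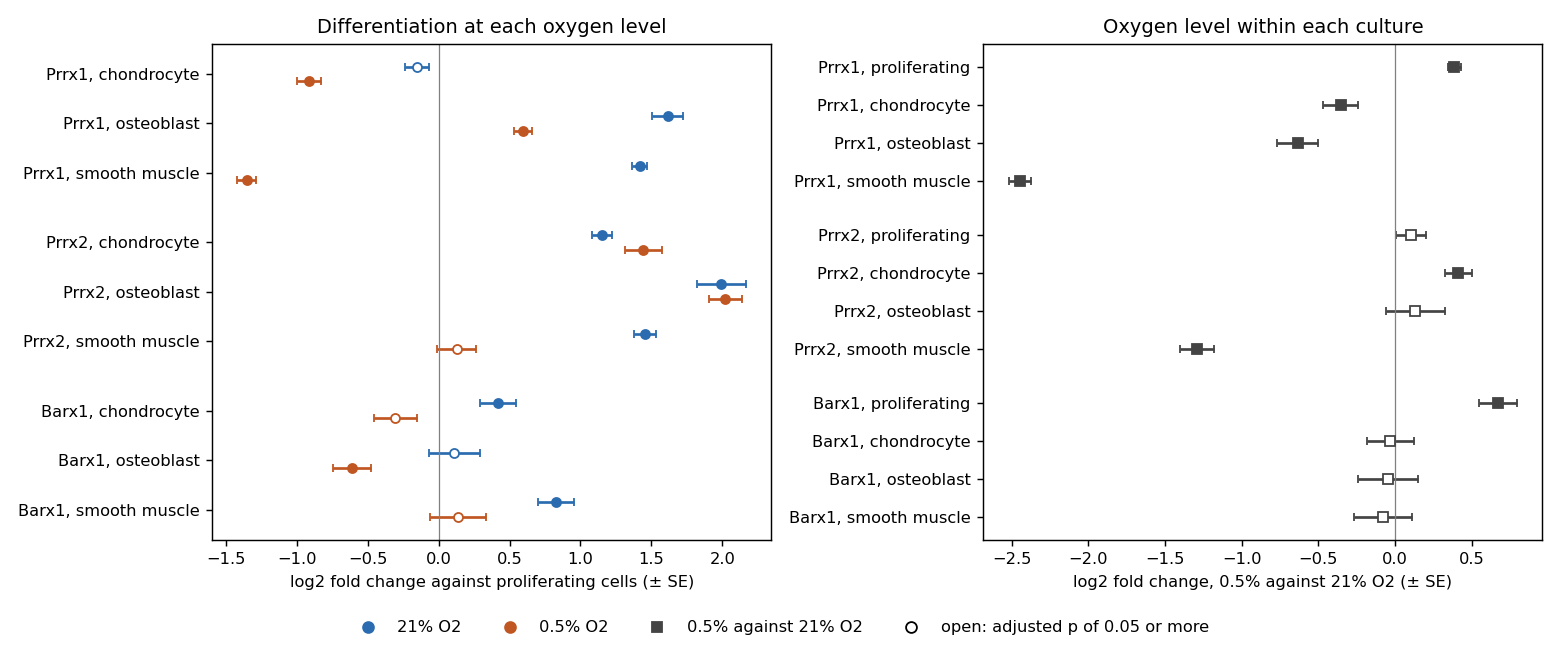
Log2 fold changes of Prrx1, Prrx2 and Barx1 with standard errors, against proliferating cells at 21% O2 (blue) and 0.5% O2 (orange) on the left, and at 0.5% against 21% O2 on the right, with open symbols where the edgeR adjusted p was 0.05 or more. Prrx1 changes most with oxygen in smooth muscle cultures (-2.45), and in chondrocyte cultures Prrx1 (-0.35) and Prrx2 (0.41) lie on opposite sides of 0.

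The balance of the paralogues was set side by side as CPM per kilobase of exon, to adjust for gene length. The length is the union of exons, 11.07 kb over 5 transcripts for Prrx1 and 1.96 kb over 4 for Prrx2. No other length was tried, and the ratios depend on this choice. Prrx1 exceeded Prrx2 3.28-fold in proliferating cells at 21% O2 (SD 0.224, n = 4) and 4.06-fold at 0.5% O2 (SD 0.838, n = 3). In chondrocyte cultures the ratio was 1.11, 1.39, 1.42 and 1.37 at 21% O2 and 1.04, 0.682 and 0.659 at 0.5% O2. By this measure Prrx2 was the higher of the pair in 2 libraries. In CPM those libraries had 538 and 514 for Prrx1 and 140 and 138 for Prrx2, so the crossing rests on the lengths. Osteoblast cultures had ratios of 3.24, 3.24, 2.99 and 1.36 at 21% O2 and of 1.80, 1.39 and 1.302 at 0.5% O2, and replicate 4 at 21% O2 lay among the latter. Smooth muscle cultures had 2.61 to 3.499 at 21% O2 and 1.298 to 1.73 at 0.5% O2, with no overlap. The ratios are a description and were not tested.

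**Figure D3:**
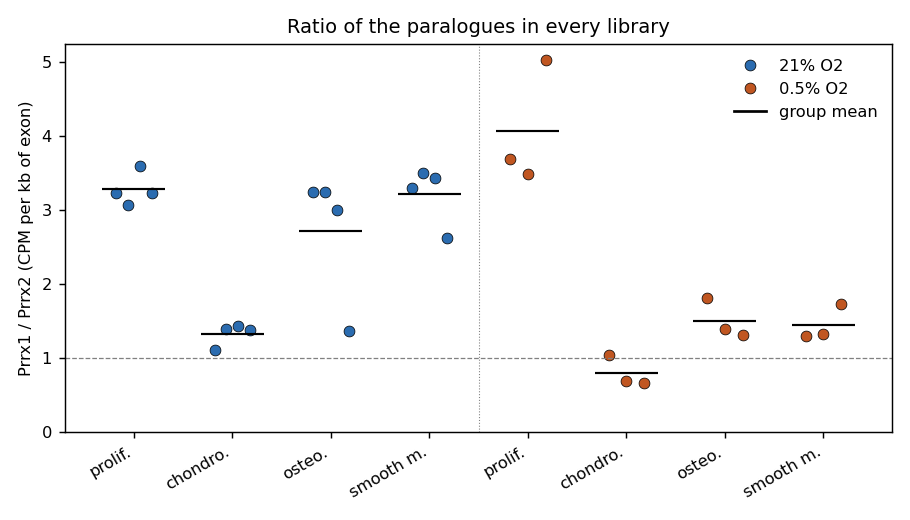
Prrx1 level divided by Prrx2 level, both in CPM per kilobase of exon, in every library by group, with group means as black lines and a dashed line where the genes are equal. The ratio is above 2.6 in proliferating and smooth muscle cultures at 21% O2, and it is lowest in chondrocyte cultures at 0.5% O2, where 2 of 3 libraries lie below 1. Where the ratio crosses 1 depends on the exon lengths used.

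Alx4 was not detected in proliferating cells at 21% O2 and was highest in chondrocyte cultures. The 4 proliferating libraries had 0 counts each, and those at 0.5% O2 had 0, 0 and 3 counts. In chondrocyte cultures at 21% O2 Alx4 was at 22.0, 15.3, 11.1 and 10.6 CPM, from 1697 counts in all. Its level from the summed counts of the group was at least 853-fold that of proliferating cells, taken against a floor of 3 counts over the summed proliferating libraries (edgeR adjusted p = 1.30e-06). This bound depends on the depth of the group at 0, and without proliferating replicate 2 it was 481-fold. At 0.5% O2 the chondrocyte libraries had 3.38, 4.41 and 5.32 CPM of Alx4, 128-fold the level of proliferating cells, with a 95% counting interval of 43.4 to 622 because only 3 counts lie behind the denominator (edgeR adjusted p = 1.78e-07).

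All 3 chondrocyte libraries at 0.5% O2 had less Alx4 than any at 21% O2, a log2 change of -1.77 ± 0.29 (edgeR adjusted p = 0.00294). Of the 5 cartilage markers, Col2a1, Acan and Col9a1 also had lower means at 0.5% O2 (274 against 3512, 622 against 1964 and 0.143 against 35.6 CPM), while Sox9 was at 161 against 159 CPM. The 5 together summed to 2793 to 8413 CPM at 21% O2 and to 842 to 1255 CPM at 0.5% O2, and Matn1 was at 1 count and at 0 counts in these groups. Their part in the change of Alx4 was not tested. Whether the rise from proliferating cells differed with oxygen could not be settled, since the interaction was -5.10 ± 2.10 (edgeR adjusted p = 0.0682) with 0 counts in 1 of its groups. DESeq2 (-4.72, adjusted p = 0.00201) and the fits without chondrocyte replicate 1 or 4 at 21% O2 (-4.84 and -5.24) called it. In osteoblast cultures at 21% O2 Alx4 was at 0.803, 1.18, 0.780 and 5.70 CPM, at least 125-fold above proliferating cells (edgeR adjusted p = 0.00191), and replicate 4 held 178 of the 254 counts. Without that replicate Alx4 was at least 51.6-fold higher (edgeR adjusted p = 6.38e-06), and without proliferating replicate 2 at least 70.8-fold. At 0.5% O2 it was at 0.619, 0.893 and 0.246 CPM, a range that overlaps. The log2 change with oxygen was -1.86 ± 0.85 (edgeR adjusted p = 0.0955) and -0.64 ± 0.46 without replicate 4 (edgeR adjusted p = 0.234), while DESeq2 (-1.85, adjusted p = 0.0250) and the fit of all 28 libraries (-1.86, adjusted p = 0.0351) called it. The osteoblast interaction of Alx4 was -5.17 ± 2.84 (edgeR adjusted p = 0.149), with the same group at 0 counts, and DESeq2 called it (-4.76, adjusted p = 0.0129). Smooth muscle cultures had 6, 2, 9 and 0 counts of Alx4 at 21% O2 and none at 0.5% O2, too few to test.

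Between the lineages that share their first days of medium, Alx4 was higher in chondrocyte than in osteoblast cultures at both oxygen levels. The log2 difference was 2.76 ± 0.64 at 21% O2 (edgeR adjusted p = 0.00510), 3.99 ± 0.34 without osteoblast replicate 4 (edgeR adjusted p = 4.88e-06), and 2.89 ± 0.38 at 0.5% O2 (edgeR adjusted p = 2.61e-05). Prrx1 was the reverse, at -1.81 ± 0.14 (edgeR adjusted p = 5.43e-06) and -1.50 ± 0.11 (edgeR adjusted p = 9.54e-08), and Prrx2 was lower in chondrocyte cultures too, at -0.88 ± 0.17 (edgeR adjusted p = 0.00146) and -0.57 ± 0.11 (edgeR adjusted p = 6.83e-04). Of the genes tested at each level, 1 of 4 was higher in chondrocyte cultures and 2 lower at 21% O2, beside 28.6% and 31.1% of all genes (59.7% together). At 0.5% O2, 1 of 5 was higher and 2 lower, beside 28.6% and 29.0% (57.6% together). By the sums of the 6 bone markers, which were higher in chondrocyte cultures at both oxygen levels, these are not contrasts of cartilage with bone. The part of the markers in these differences was not tested. Alx4 overlaps Ext2, a heparan sulphate polymerase gene on the opposite strand. The kit kept strand, but whether the counting used it is not given in the sources used here. Ext2 had 2445 to 6686 counts in the 4 proliferating libraries at 21% O2 in which Alx4 had none.

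Pitx1 stayed close to the detection limit, and of the 8 groups the osteoblast cultures at 0.5% O2 held the largest number of its reads, 72 of 150. Counts there were 14, 32 and 26 (0.542, 1.10 and 0.915 CPM), against 1, 2, 3 and 8 in osteoblast cultures at 21% O2, and every library at 0.5% O2 lay above every library at 21% O2. Sp7, Alpl and Ibsp were also higher in these libraries than in those at 21% O2, and their part in the Pitx1 difference was not tested. The log2 change with oxygen was 2.78 ± 0.57 (edgeR adjusted p = 0.00283), and 3.49 ± 0.59 without osteoblast replicate 4 (edgeR adjusted p = 1.93e-04). Pitx1 entered this test, and the one against proliferating cells, only through the osteoblast libraries at 0.5% O2, so it could only be called higher. Pitx1 had 0 counts in all 7 proliferating libraries, so the osteoblast level at 0.5% O2 was at least 25.3-fold higher (edgeR adjusted p = 2.22e-05), and at least 16.4-fold without proliferating replicate 1 at 0.5% O2. For the same reason the interaction has no usable estimate. Chondrocyte cultures had 4, 6, 11 and 0 counts of Pitx1 at 21% O2 and 29, 3 and 10 counts at 0.5% O2, overlapping ranges that were too low to test, and smooth muscle cultures had 1 count in 7 libraries. Between chondrocyte and osteoblast cultures at 0.5% O2 the log2 difference of Pitx1 was -0.85 ± 0.60 (edgeR adjusted p = 0.246), and -1.87 ± 0.66 without chondrocyte replicate 1 (edgeR adjusted p = 0.0272). The antisense RNA Gm47071 overlaps Pitx1 and had 1.24 ± 0.272 CPM in osteoblast cultures at 0.5% O2 (SD, n = 3) and 0.951 ± 0.159 CPM at 21% O2 (SD, n = 4), and the reads of the pair cannot be told apart if strand was not used. Gm47071 was highest in proliferating cells at 21% O2, at 2.13 ± 1.01 CPM (SD, n = 4) from 32 to 173 counts per library, where Pitx1 had 0 counts in every library.

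Barx1 was low, and its group means stayed between 6.94 and 11.9 CPM. It was at 6.99, 7.85, 5.60 and 7.32 CPM in proliferating cells at 21% O2 and at 10.9, 10.2 and 11.0 CPM at 0.5% O2, all above the former (log2 0.67 ± 0.12, edgeR adjusted p = 2.54e-04). In each differentiated culture the ranges at the 2 oxygen levels overlapped, and the log2 differences were -0.03 ± 0.15 in chondrocyte, -0.04 ± 0.20 in osteoblast and -0.08 ± 0.19 in smooth muscle cultures (edgeR adjusted p = 0.920, 0.870 and 0.717). The last of these was called lower when scaled by library size alone (-1.44, edgeR adjusted p = 8.05e-06). Smooth muscle cultures at 21% O2 had the highest mean Barx1 level of the series, from libraries at 11.5, 14.2, 11.0 and 11.0 CPM that overlap those of proliferating and smooth muscle cultures at 0.5% O2 (log2 0.83 ± 0.13 against proliferating cells, edgeR adjusted p = 1.78e-05).

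In chondrocyte cultures Barx1 was at 8.98, 8.57, 9.78 and 8.04 CPM at 21% O2, all above proliferating cells (log2 0.42 ± 0.13, edgeR adjusted p = 0.00952), a call that library size alone (0.07) and the fit of all 28 libraries (0.35) did not give. At 0.5% O2 it was at 8.57, 10.6 and 7.03 CPM, overlapping proliferating cells (-0.30 ± 0.15, edgeR adjusted p = 0.0887), and it was called lower by library size alone (-0.64) and without chondrocyte replicate 2 (-0.46). Osteoblast cultures had 6.95, 5.20, 7.53 and 9.16 CPM at 21% O2, around the proliferating range (0.11 ± 0.18, edgeR adjusted p = 0.589). The chondrocyte against osteoblast difference at 21% O2 was 0.27 ± 0.17 (edgeR adjusted p = 0.186), and 0.41 ± 0.15 without osteoblast replicate 4 (edgeR adjusted p = 0.0265). Osteoblast cultures had 6.35, 6.73 and 7.96 CPM at 0.5% O2, all below proliferating cells (-0.61 ± 0.14, edgeR adjusted p = 9.05e-04). Smooth muscle cultures at 0.5% O2 had 12.6, 7.58 and 12.1 CPM, a range that spans the proliferating one, and a log2 difference of 0.14 ± 0.20 (edgeR adjusted p = 0.557) that turned to -1.13 when scaled by library size alone. The interactions for Barx1 were -0.69 ± 0.20 for chondrocyte (edgeR adjusted p = 0.00943), -0.68 ± 0.24 for osteoblast (edgeR adjusted p = 0.0237) and -0.71 ± 0.23 for smooth muscle cultures (edgeR adjusted p = 0.00872). All 3 rest on the same proliferating libraries, which differed in Barx1 between oxygen levels. The osteoblast one was lost without either of 2 proliferating or either of 2 osteoblast libraries at 0.5% O2 (edgeR adjusted p up to 0.0630).

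Few other genes of the same classes were active. Of 25 matched paired-class and Barx relatives, 5 reached a mean of 10 counts in any group, and of 39 Hox genes none did. Shox2, a paired-type factor of palate and limb, was the most abundant relative. It rose in chondrocyte cultures from 25.1 ± 3.02 to 66.6 ± 2.37 CPM at 21% O2 (SD, n = 4, log2 1.49 ± 0.09, edgeR adjusted p = 1.36e-08) and from 33.3 ± 3.11 to 63.2 ± 2.81 CPM at 0.5% O2 (SD, n = 3, log2 0.91 ± 0.08, edgeR adjusted p = 3.43e-07). At 21% O2 its rise was larger in smooth muscle cultures, to 127 ± 5.13 CPM (SD, n = 4, log2 2.40 ± 0.08, edgeR adjusted p = 3.91e-13), and it also rose in osteoblast cultures, to 48.1 ± 11.7 CPM (SD, n = 4, log2 0.99 ± 0.18, edgeR adjusted p = 6.20e-04). At 0.5% O2 Shox2 rose in osteoblast cultures to 43.9 ± 2.10 CPM (SD, n = 3, log2 0.39 ± 0.09, edgeR adjusted p = 0.00128), and in smooth muscle cultures the log2 difference was -0.13 ± 0.13 (edgeR adjusted p = 0.367). The last value depends on the scaling, since library size alone shifts the median of all genes in that comparison by -1.28. Pitx3, the lens and midbrain member of the Pitx family, rose in smooth muscle cultures to 1.15 ± 0.382 CPM at 21% O2 (SD, n = 4, log2 4.63 ± 0.57, edgeR adjusted p = 1.69e-06). Barx2, the paralogue of Barx1, was higher in proliferating cells at 0.5% than at 21% O2, at 1.84 against 0.0466 CPM (log2 5.40 ± 0.63, edgeR adjusted p = 4.27e-06). Pitx3 and Barx2 were near 0 counts in the lower group and entered the test only through the other group, so they could only be called higher. Their log2 values rest on few counts in the lower group. Gsc, an organiser and jaw homeobox gene, was lower in osteoblast cultures at 0.5% O2 (log2 -2.04 ± 0.33, edgeR adjusted p = 7.69e-04).

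Among 32 other homeobox genes active in the face, 18 of 28 tested rose and 5 fell in chondrocyte cultures at 21% O2, 20 of 27 rose and 5 fell in osteoblast cultures, and 16 of 25 rose and 6 fell in smooth muscle cultures. Over all genes tested in these cultures, 37.7%, 40.9% and 40.8% rose and 37.2%, 37.8% and 38.9% fell. The median log2 changes of the list were 0.43, 0.75 and 0.71, where all genes had 0.00, 0.07 and 0.03. These counts and medians, and those of the other lists, cover only genes that passed the low-count filter, and a gene near 0 counts in 1 group passed it only through the other group. At 0.5% O2 the smooth muscle cultures had 5 of 24 higher and 13 lower than proliferating cells (median -0.77, all genes -0.07, of which 33.8% were higher and 36.2% lower), and 2 higher and 21 lower when scaled by library size alone. Dlx5, a jaw patterning and bone factor, went from 0 counts in proliferating cells to 44.9 CPM in chondrocyte cultures at 21% O2 (edgeR adjusted p = 1.27e-09), and Lhx6, an oral mesenchyme factor, fell from 13.6 to 1.40 CPM (log2 -3.19 ± 0.16, edgeR adjusted p = 4.09e-09). Msx1, a palate and tooth factor, was the gene of this list that fell most with low oxygen in osteoblast cultures, from 206 to 12.5 CPM (log2 -4.04 ± 0.15, edgeR adjusted p = 1.65e-07), where 7 of 29 rose (3 by library size alone, 12 without replicate 4 at 21% O2) and 10 fell, beside 27.0% and 27.3% of all genes. With low oxygen in smooth muscle cultures, 4 of 26 rose (0 by library size alone) and 20 fell, with a median of -1.37 beside -0.12 over all genes, of which 35.4% rose and 40.2% fell, and Pknox2, a TALE-class homeobox gene, went from 1.52 CPM to 0 counts (edgeR adjusted p = 7.92e-05). The smooth muscle libraries at 0.5% O2 are the 3 with 11.6 to 13.3% mitochondrial ribosomal RNA and 28.5 to 42.3 CPM of smooth muscle markers, and the part of these in the list's changes was not tested.

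Of 34 other transcription factors of facial mesenchyme, 17 of 28 tested rose and 6 fell (10 by library size alone) in chondrocyte cultures at 21% O2, beside 37.7% and 37.2% of all genes, with a median of 0.63 beside 0.00 over all genes. Mn1, a palate factor, rose from 0.640 to 57.9 CPM (log2 6.69 ± 0.25, edgeR adjusted p = 1.85e-09), and Twist2, a dermal and bone mesenchyme factor, fell from 52.5 to 3.42 CPM (log2 -3.86 ± 0.09, edgeR adjusted p = 9.68e-12). With low oxygen in smooth muscle cultures, in the same 3 libraries that stood apart, 3 of 26 rose and 20 fell, beside 35.4% and 40.2% of all genes, with a median of -0.86 beside -0.12. Twist1, a mesenchyme and neural crest factor, rose there from 88.1 to 433 CPM (log2 2.36 ± 0.10, edgeR adjusted p = 1.31e-11). Of 33 signals and receptors that act on or with these factors, and their known targets, 17 of 25 tested rose and 5 fell in chondrocyte cultures at 21% O2, with Fgf10 falling from 56.7 to 2.55 CPM (log2 -4.40 ± 0.13, edgeR adjusted p = 4.76e-11). The median of that list was 1.11 beside 0.00 over all genes, of which 37.7% rose and 37.2% fell. In osteoblast cultures at 0.5% against 21% O2, 5 of 24 rose (8 without replicate 4 at 21% O2) and 13 fell (median -0.58, all genes -0.03, of which 27.0% rose and 27.3% fell). The endothelin ligand gene Edn1 rose there from 4.60 to 29.5 CPM (log2 2.68 ± 0.16, edgeR adjusted p = 2.01e-06), and the hedgehog target Gli1 fell from 1.85 to 0.204 CPM (log2 -3.15 ± 0.33, edgeR adjusted p = 5.90e-05).

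**Figure D4:**
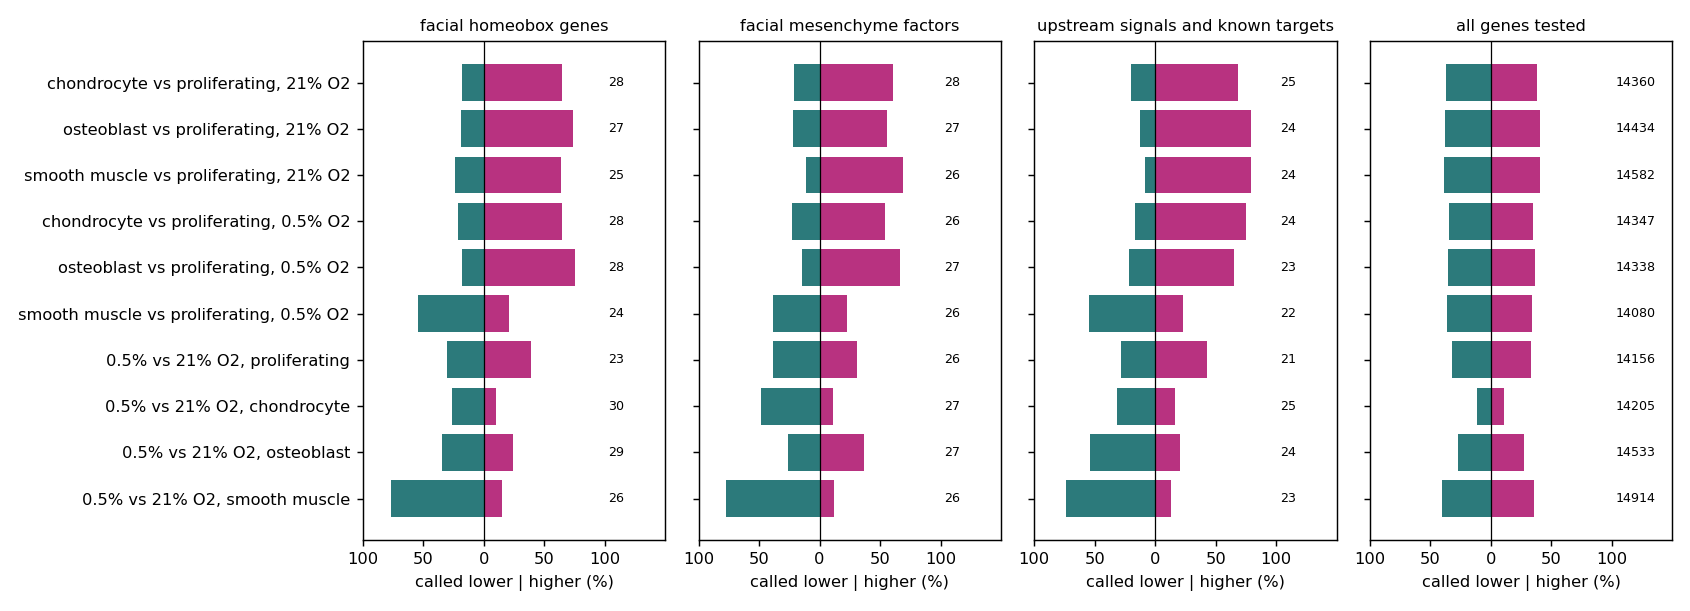
Share of tested genes called higher (right, magenta) and lower (left, teal) at an edgeR adjusted p under 0.05 in 10 comparisons, for 3 gene lists and for all genes tested, with the number tested at the right of each bar. In smooth muscle cultures at 0.5% against 21% O2 the calls lie mostly on the lower side in the 3 lists, and over all genes 35.4% were higher and 40.2% lower.

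The genes whose pattern was most like each of 5 of the genes (not Alx1, with its 1 count) were sought by Pearson's r of log2(CPM + 0.5) over the 8 group means among 13289 genes, as a description. The nearest to Alx4 were Adamtsl2, Col11a2 and Hapln1 (r = 0.991, 0.987 and 0.985), the last 2 of them cartilage matrix genes. The nearest to Prrx1 were Cdc42ep4, Arhgef17 and Aldh7a1 (0.994, 0.986 and 0.977), and to Prrx2 Cryab, Grk5 and Prkg1 (0.989, 0.982 and 0.979). For Pitx1 they were Mlph, Muc2 and Efs (0.987, 0.978 and 0.978), and over the 28 single libraries the value for Muc2 was 0.651. For Barx1 they were Cnih2, Cask and Ccdc162 (0.910, 0.908 and 0.905), and for Cask the value over the 28 libraries was 0.433. The points share groups and libraries, and no p is given.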

How the data were processed

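RNA of O9-1 cells was sequenced in 28 libraries of 8 groups. Reads were processed with HISAT2 2.0.5, StringTie 1.3.3b and featureCounts 1.5.0-p3 on mm10, per the submitters' processing notes, and the authors deposited raw counts per gene; the annotation release and the strand setting of the counting are not given in the sources used here. Of 54429 identifiers, 54314 matched a symbol in GENCODE vM21, and 70 columns of normalized values were not used. The authors' deposited tables also hold log2 fold changes, which had the same sign as those computed here in 37 of 37 member values, with differences up to 1.44 (Alx4, absent from 1 group).

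Counts were tested with edgeR 4.0.16 in R 4.3.3 (filterByExpr with a minimum count of 10, TMM, robust quasi-likelihood F test, two-sided), each comparison on its own groups, with Benjamini-Hochberg adjustment over all genes tested and calls at 0.05. SE is the log2 fold change divided by the root of F. Alternatives were RLE and library-size scaling, mitochondrial genes left out, other count filters, limma 3.58.1 (voom), DESeq2 1.42.0, all 28 libraries, the replicate number as a block and leaving out each library. The script was tested on simulated counts. No 2 libraries held identical counts. Replicate numbers did not pair the libraries. Per-length values use the union of exons.

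The 6 genes, the gene lists and the tests were chosen with earlier results of these data known. Named genes are the 6, the called gene of each list with the largest rise or fall in a comparison, and the 3 nearest profiles; Drgx of the relatives had no match. Marker genes were fixed as lists, and Cd68, Ptprc, Hbb-bs, Sp7, Alpl, Ibsp, Col1a1 and Acta2 were singled out after their values were seen. Promoters are from RefSeq (GRCm38.p6), where 3 of the 6 genes matched. The depth of 19869271 to 64693346 counts per library limits what can be said of genes below about 10 counts.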

Additional observations from a re-analysis of the deposited data

Results flagged for a closer look

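Among 18 pairs of a gene and a group of 4 libraries, 6 had a library far from the other 3 by Dixon's criterion, which chance gives in about 1 of 20. Of these, 3 lie in osteoblast replicate 4 at 21% O2: Alx4 at 5.70 CPM, Prrx1 at 1913 CPM and Prrx2 at 250 CPM. The other 3 lie in smooth muscle cultures at 21% O2, in different libraries: Prrx2 at 143 CPM in replicate 4, Barx1 at 14.2 CPM in replicate 2, and Pitx1 at 0.0306 CPM in replicate 1, which is a single count beside 3 libraries at 0, a pattern that always meets the criterion, so that the chance rate does not apply to it. In osteoblast replicate 4, 5 of 5 cartilage markers, 5 of 6 bone markers and 4 of 4 smooth muscle markers were above the other 3 libraries. The 5 neural crest markers summed to 198 CPM there and to 225 to 245 CPM in the other 3, with 1 marker above, 2 below and 2 at 0 counts. Their part in the levels of the 6 genes was not tested.

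The change from proliferating cells differed between oxygen levels by the edgeR interaction test in 7 cases. These were Prrx1 in chondrocyte (-0.73), osteoblast (-0.98) and smooth muscle (-2.79) cultures, Barx1 in the same cultures (-0.69, -0.68 and -0.71), and Prrx2 in smooth muscle cultures (-1.355), all on the log2 scale and all lower at 0.5% O2. They are 2 of 4, 2 of 5 and 3 of 3 genes tested, beside 43.5%, 54.2% and 70.4% of all genes called (21.9%, 25.3% and 35.5% lower). The tests share the proliferating libraries, in which Prrx1 and Barx1 were higher at 0.5% O2. The osteoblast call of Barx1 was lost when some single libraries were left out.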

How the results depend on the processing

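Scaling by library size alone shifted the median of all genes by -1.28 in smooth muscle against proliferating cells at 0.5% O2 and by -1.37 between oxygen levels in smooth muscle cultures, and it turned Prrx2 (-1.15) and Barx1 (-1.13) in the former, where 3 genes were then called instead of 1. It also moved the share of higher calls among all called genes from 50.3 to 34.7% (chondrocyte, 21% O2), 50.2 to 31.8% (chondrocyte, 0.5% O2), 50.8 to 38.2% (osteoblast, 0.5% O2) and 48.3 to 15.0% (smooth muscle, 0.5% O2). Between oxygen levels it moved from 46.9 to 31.8% in chondrocyte, 49.6 to 36.9% in osteoblast and 46.8 to 15.6% in smooth muscle cultures, between chondrocyte and osteoblast cultures at 21% O2 from 47.95 to 34.3%, and in the smooth muscle interaction from 49.6 to 16.6%. With no low-count filter 5 of the genes were called in chondrocyte cultures at 21% O2 instead of 3. With at least 10 counts in every library, 1 was called between oxygen levels in osteoblast cultures instead of 2, since fewer genes were tested. Leaving out single libraries gave 2091 to 3359 calls over all genes between oxygen levels in chondrocyte cultures, against 3157, with the lowest without replicate 3 at 0.5% O2. It gave 2 to 4 of the 6 genes in the chondrocyte interaction, the highest without replicate 4 at 21% O2, and 1 to 2 in the osteoblast interaction. RLE scaling and the mitochondrial genes left out, limma-voom, DESeq2 and the fit of all 28 libraries gave no other change of more than 1.5 times in the counts of the 6 genes and of all genes. In the lists, the fit of all 28 libraries moved rising homeobox genes with low oxygen in chondrocyte cultures from 3 to 1. It moved rising mesenchyme factors with low oxygen in proliferating cells from 8 to 5. Falling signals in osteoblast against proliferating cultures at 0.5% O2 went from 5 to 3. DESeq2 gave 1 of the 6 genes' values no adjusted p. For the named genes of the other lists, 255 values under the alternatives neither changed direction nor lost a call, and 1 lost its call (Pbx2, scaled by library size alone). The check does not show whether an uncalled value, such as Shox2 in smooth muscle cultures at 0.5% O2, gained a call. The number of rising homeobox genes between oxygen levels in osteoblast cultures went from 7 to 13 with the replicate block, and that of signals from 5 to 8. No group at 0.5% O2 has a replicate 4. Between oxygen levels the block therefore gives replicate 4 at 21% O2 a term of its own, which leaves it without weight. Leaving that osteoblast library out gave 12 and 8. The causes of the other changes were not tested.

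Same-numbered libraries did not deviate together (correlations of -0.260 to 0.107, and in 0 of 12 comparisons over 0.1 for every pair). With the replicate number as a block, 2 genes were called between oxygen levels in chondrocyte cultures (Prrx1 at -0.28, edgeR adjusted p = 0.172), 3 in osteoblast cultures (Prrx2 at 0.35, edgeR adjusted p = 5.03e-04) and 3 in the osteoblast interaction (Alx4 at -4.98, edgeR adjusted p = 0.0457, against -5.17 and 0.149 without the block). Between oxygen levels the block is no separate check, since it leaves replicate 4 at 21% O2 without weight. Without that library and with no block, Prrx1 was also at -0.28 in chondrocyte and Prrx2 at 0.35 in osteoblast cultures. Depth limits Alx1 and Pitx1, which had 1 and 150 counts in the series.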

Other observations

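Prrx1 was not the only mesenchymal factor with a step between smooth muscle cultures at the 2 oxygen levels. The libraries at 0.5% O2 are those that stood apart, with 11.6 to 13.3% mitochondrial ribosomal RNA, and the part of this in the steps was not tested. Shox2 was at 127 ± 5.13 CPM at 21% O2 (SD, n = 4) and at 27.96 ± 3.54 CPM at 0.5% O2 (SD, n = 3), and was chosen here after its values were seen, while the mean of Pbx2, a homeodomain partner of Hox and Meis factors, was 48.2 CPM at 21% O2 and 134 CPM at 0.5% O2 (log2 1.54 ± 0.09, edgeR adjusted p = 9.12e-10), a call lost when scaled by library size alone (0.17, edgeR adjusted p = 0.112). Adamtsl2, the gene nearest to Alx4 in pattern, was at 14.3 ± 2.53 CPM in chondrocyte cultures at 21% O2 (SD, n = 4) and at 3.75 ± 0.718 CPM at 0.5% O2 (SD, n = 3), and in osteoblast cultures at 21% O2 its highest library had 6.66 CPM and its lowest 1.19 CPM.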
